A study of Homo sapiens with 6 samples.

Results

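The 36 genes described here belong to the machinery with which a cell makes, takes up and exports sterols and makes fatty acids, most of them known targets of the sterol regulatory element binding proteins (SREBPs). They were taken by symbol from the 36601 genes of the deposited count matrices, and all 36 were found. Of the 36, 18 encode enzymes of sterol synthesis, 4 encode SREBPs or their regulators, 10 act in fatty acid synthesis, 2 in sterol uptake and transport and 2 in sterol export. They were followed in single-cell RNA sequencing of human retinal organoids. The organoids were grown from WA09 embryonic stem cells, an established line, with a tdTomato reporter of CRX. Organoids of day 113 to 126 were broken into fragments, and each of 3 experiments, called Sets, gave 1 cultured and 1 transplanted sample. The cultured fragments stayed in the dish for 3 days. The transplanted fragments of the same organoid batch spent those 3 days under the retina of normal dogs, a host of another species whose own cells can enter the sample. All samples share the line and its reporter, so every value comes from 1 genetic background, and 3 Sets are the replicates.

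Cells make cholesterol from acetyl-CoA through the mevalonate pathway, and fatty acids from the same precursor. SREBPs are transcription factors that wait in the membrane of the endoplasmic reticulum. SCAP carries them to the Golgi for cleavage when sterols run low, and INSIG proteins hold SCAP back when sterols are plentiful. The freed fragment switches on both routes, with SREBP-2, the product of SREBF2, acting mainly on sterol genes and SREBP-1, the product of SREBF1, mainly on fatty acid genes. Liver X receptors answer to oxidised sterols in the opposite sense and raise the exporters ABCA1 and ABCG1. The neural retina makes cholesterol itself, Müller glia are a source of lipid for neurons, and photoreceptors need lipid for the membrane stacks of their outer segments.

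SREBPs bind short DNA elements, commonly beside a CCAAT box that binds the factor NF-Y, so the promoters of the members were read. The stretches below lie just upstream of HMGCS1 (1 of its 2 CCAAT boxes lies in the stretch) and SCD, both of which fell in these data, and of SREBF2, which encodes an SREBP. Sequences are from RefSeq (GRCh38.p14), written in the direction of the gene and printed only as far as the gene model of GENCODE begins. Capitals mark the CCAAT box on either strand and, in SREBF2, also the sterol regulatory element TCACNCCAC.
HMGCS1 (chr5:43313513-43313662, minus strand): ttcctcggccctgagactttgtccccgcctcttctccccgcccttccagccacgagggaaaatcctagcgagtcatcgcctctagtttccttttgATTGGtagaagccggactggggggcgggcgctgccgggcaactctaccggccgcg
SCD (chr10:100346983-100347123, plus strand): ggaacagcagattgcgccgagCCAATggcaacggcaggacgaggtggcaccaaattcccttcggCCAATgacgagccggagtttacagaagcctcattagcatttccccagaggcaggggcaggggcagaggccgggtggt
SREBF2 (chr22:41832855-41833078, plus strand): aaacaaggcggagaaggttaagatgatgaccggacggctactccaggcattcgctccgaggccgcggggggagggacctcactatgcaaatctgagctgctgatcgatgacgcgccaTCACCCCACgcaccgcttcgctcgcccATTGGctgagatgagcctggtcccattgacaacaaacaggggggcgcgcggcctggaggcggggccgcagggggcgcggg
The promoter table held 31 of the 36 members. CCAAT, read on both strands over the 250 bases upstream of the RefSeq start, was present in 19 of these 31 promoters (61.29%), against 33.038% of all 27305 promoters. TCACNCCAC stood in 1 member promoter, that of SREBF2 (3.226% against 0.875% of all), and the E-box TCACGTG in those of INSIG1 and SC5D (6.452% against 3.38%). The motifs were searched without regard to overlap with each other, and a match is only a match of letters.

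Cells were put into 4 classes by unique molecular identifier (UMI) counts of a few genes: rods by NRL, cones by PDE6H in excess of NRL, Müller glia by HES5, WIF1 and TTYH1, and amacrine cells by TFAP2A and TFAP2B. The classes were mixed. Of 3243 rods in cultured sample 1, 1592 also met the rule of another class. Levels are given as CPM, the UMIs of a gene divided by all UMIs of the cells of a class in a library, times 1000000. In cultured samples 1, 2 and 3, 6 further rod genes summed to 166, 258 and 403 CPM in rods and to 52.3, 78.7 and 119 CPM in cones. A list of 6 Müller glia genes summed to 4571, 5333 and 1271 CPM in Müller glia but also to 2699, 3793 and 663 CPM in rods. A list of 6 cone genes summed to 410, 342 and 824 CPM in cultured cones and to 138, 203 and 265 CPM in transplanted cones. Of that list only GNGT2 was called in cones (log2 change -1.81, edgeR adjusted p = 0.02016), and it also fell in rods (-1.58) and Müller glia (-1.36), while ARR3, GNAT2 and PDE6C stood at 0.19, 0.25 and -0.24 in cones and were not called. In cultured amacrine cells 4 horizontal cell genes summed to 229, 679 and 1254 CPM, beside 554, 930 and 861 CPM for 6 amacrine genes. Against cultured rods, over cells of 1 class only, the horizontal cell genes ONECUT1, ONECUT2 and LHX1 were higher in amacrine cells by 4.47, 5.02 and 4.66 on the log2 scale, as was the amacrine gene GAD2 by 4.81. CALB1, also of the horizontal cell list, stood at -1.17 and was not called. Of the amacrine list GAD1, SLC32A1 and MEIS2 were higher too (1.42, 5.12 and 1.01). SLC6A9 was lower (-1.94), and C1QL2 stood at -0.23 without a call. In Müller glia MKI67 of dividing cells, PAX2 of astrocytes and COL1A1 of fibroblasts were higher than in rods by 3.04, 3.02 and 2.49. The names therefore stand for the marker rules. Markers of myeloid cells summed to at most 11.8 CPM, those of T or NK cells to at most 20.7 CPM and those of erythroid cells to at most 2.0 CPM in any class and library.

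The 6 samples held between 6850189 and 108222149 UMIs, and after filtering between 690 and 15336 cells with a median of 2119 to 4112 UMIs. Pairs of libraries shared between 0 and 41 cell barcodes. Over all cells that met its rule, a class was summed from as few as 34 cells (cones of transplanted sample 2, 542401 UMIs) and 36 and 37 cells (amacrine cells of transplanted samples 2 and 1, the latter with 283691 UMIs). In that last library 3 UMIs, taken as the limit that a count of 0 allows, equal 10.6 CPM. Sums over cells of 1 class only were smaller. They held 30 Müller glia in cultured sample 3, and 25 Müller glia and 27 amacrine cells in transplanted sample 2. Markers of several other cell types moved with transplantation. Markers of dividing progenitors (5 genes) summed in rods to 555, 172 and 228 CPM in the cultured samples and to 93.4, 41.4 and 64.9 CPM in the transplanted samples, and they were lower in 3 of 3 Sets in each of the 4 classes. Rods of cultured samples 1, 2 and 3 had a median mitochondrial share of 1.7%, 2.76% and 1.16% of their UMIs, and transplanted rods one of 4.35%, 3.39% and 3.27%. This share was higher in 3 of 3 Sets in rods and cones, but in Set 2 it was lower after transplantation in Müller glia (3.56% to 2.36%) and amacrine cells (3.46% to 2.81%). Markers of pigment epithelium (5 genes) summed in rods to 409, 288 and 181 CPM in culture and 660, 566 and 430 CPM after transplantation, and those of horizontal cells to 114, 221 and 122 CPM against 47.7, 54.3 and 64.3 CPM. Each of these sums kept its direction in 3 of 3 Sets in all 4 classes. T or NK markers summed in rods to 4.40, 5.95 and 2.55 CPM against 8.83, 20.7 and 19.8 CPM, with 2 or 3 of the 4 genes at 0 in each library. Single markers called in rods and in Müller glia were TRAC of T cells (log2 change 1.90 and 1.96), DCT of pigment cells (1.32 and 1.34) and GRM6 of bipolar cells (1.45 and 1.61), and S100B of astrocytes was called in rods (-1.20). Other genes of these lists went the other way in rods, without a call. For pigment cells PMEL, TYR and TYRP1 stood at -0.38, -0.76 and -1.13, while SERPINF1 stood at 1.08. For bipolar cells VSX1, TRPM1, CABP5 and PRKCA stood at -0.28, -0.79, -0.58 and -0.49. For astrocytes GFAP stood at 0.46, while PAX2 stood at -1.49. Also called in rods were GNGT1 of the rod list (-1.83) and CALB1 of the horizontal cell list (-1.77). The rod genes NR2E3, GNAT1, CNGA1, PDE6B and SAG stood at 0.49, 0.17, 0.38, 0.22 and 0.98 there without a call. The horizontal cell genes ONECUT1, ONECUT2 and LHX1 stood at -0.37, -0.29 and 1.04, also without a call. The part of these markers in the results below was not tested.

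The main comparison asked how the members differ between transplanted and cultured cells of a class within each Set. In all 4 classes the member with the lowest adjusted p was HMGCS1, which encodes the synthase of the substrate of the mevalonate route. In rods 3 of the 36 members fell and 0 rose (HMGCS1, SCD and ELOVL6), against 1.53% of 19156 genes lower and 1.64% higher. In cones 4 fell and 0 rose (HMGCS1, ACAT2, SCD and ELOVL6), against 0.318% of 17620 genes lower and 0.238% higher. In Müller glia 1 fell and 0 rose (HMGCS1; 1.5% of 19505 genes lower, 1.29% higher). In amacrine cells 1 of 35 tested fell and 0 rose (HMGCS1; 0.778% of 11059 genes lower, 1.1% higher), STARD4 having too few UMIs for the test.

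These calls are adjusted p-values under 0.05 in edgeR's quasi-likelihood test with the Set as a block, adjusted by Benjamini-Hochberg over all genes tested. Without the block edgeR called no gene in any class, members included, with 3, 7, 4 and 3 members at an unadjusted p under 0.05 in rods, cones, Müller glia and amacrine cells. With the block 15, 18, 10 and 12 members reached that unadjusted level, of which 12, 15, 8 and 10 were lower. The share of all genes at that unadjusted level is not given, here or for the differences of responses below. These unadjusted counts are therefore not read as a result about the members. The median log2 change of the members was -0.30 in rods, -0.48 in cones, -0.12 in Müller glia and -0.28 in amacrine cells, while the median of all genes tested lay between -0.03 and 0.00.

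More members shared a direction than passed the test. In CPM, 22 of 36 members lay below their cultured partner in 3 of 3 Sets in rods (28.5% of all genes), 20 of 36 in cones (19.6%), 21 of 36 in Müller glia (29.3%) and 17 of 35 in amacrine cells (24.5%). The transplanted libraries all lay below the cultured ones for 12 members in rods (5.5% of all genes), 14 in cones (3.87%), 9 in Müller glia (5.8%) and 6 in amacrine cells (4.81%). The plot of log2 changes by member shows the sterol and fatty acid genes mostly to the left of zero and the exporters to the right.

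**Figure D1:**
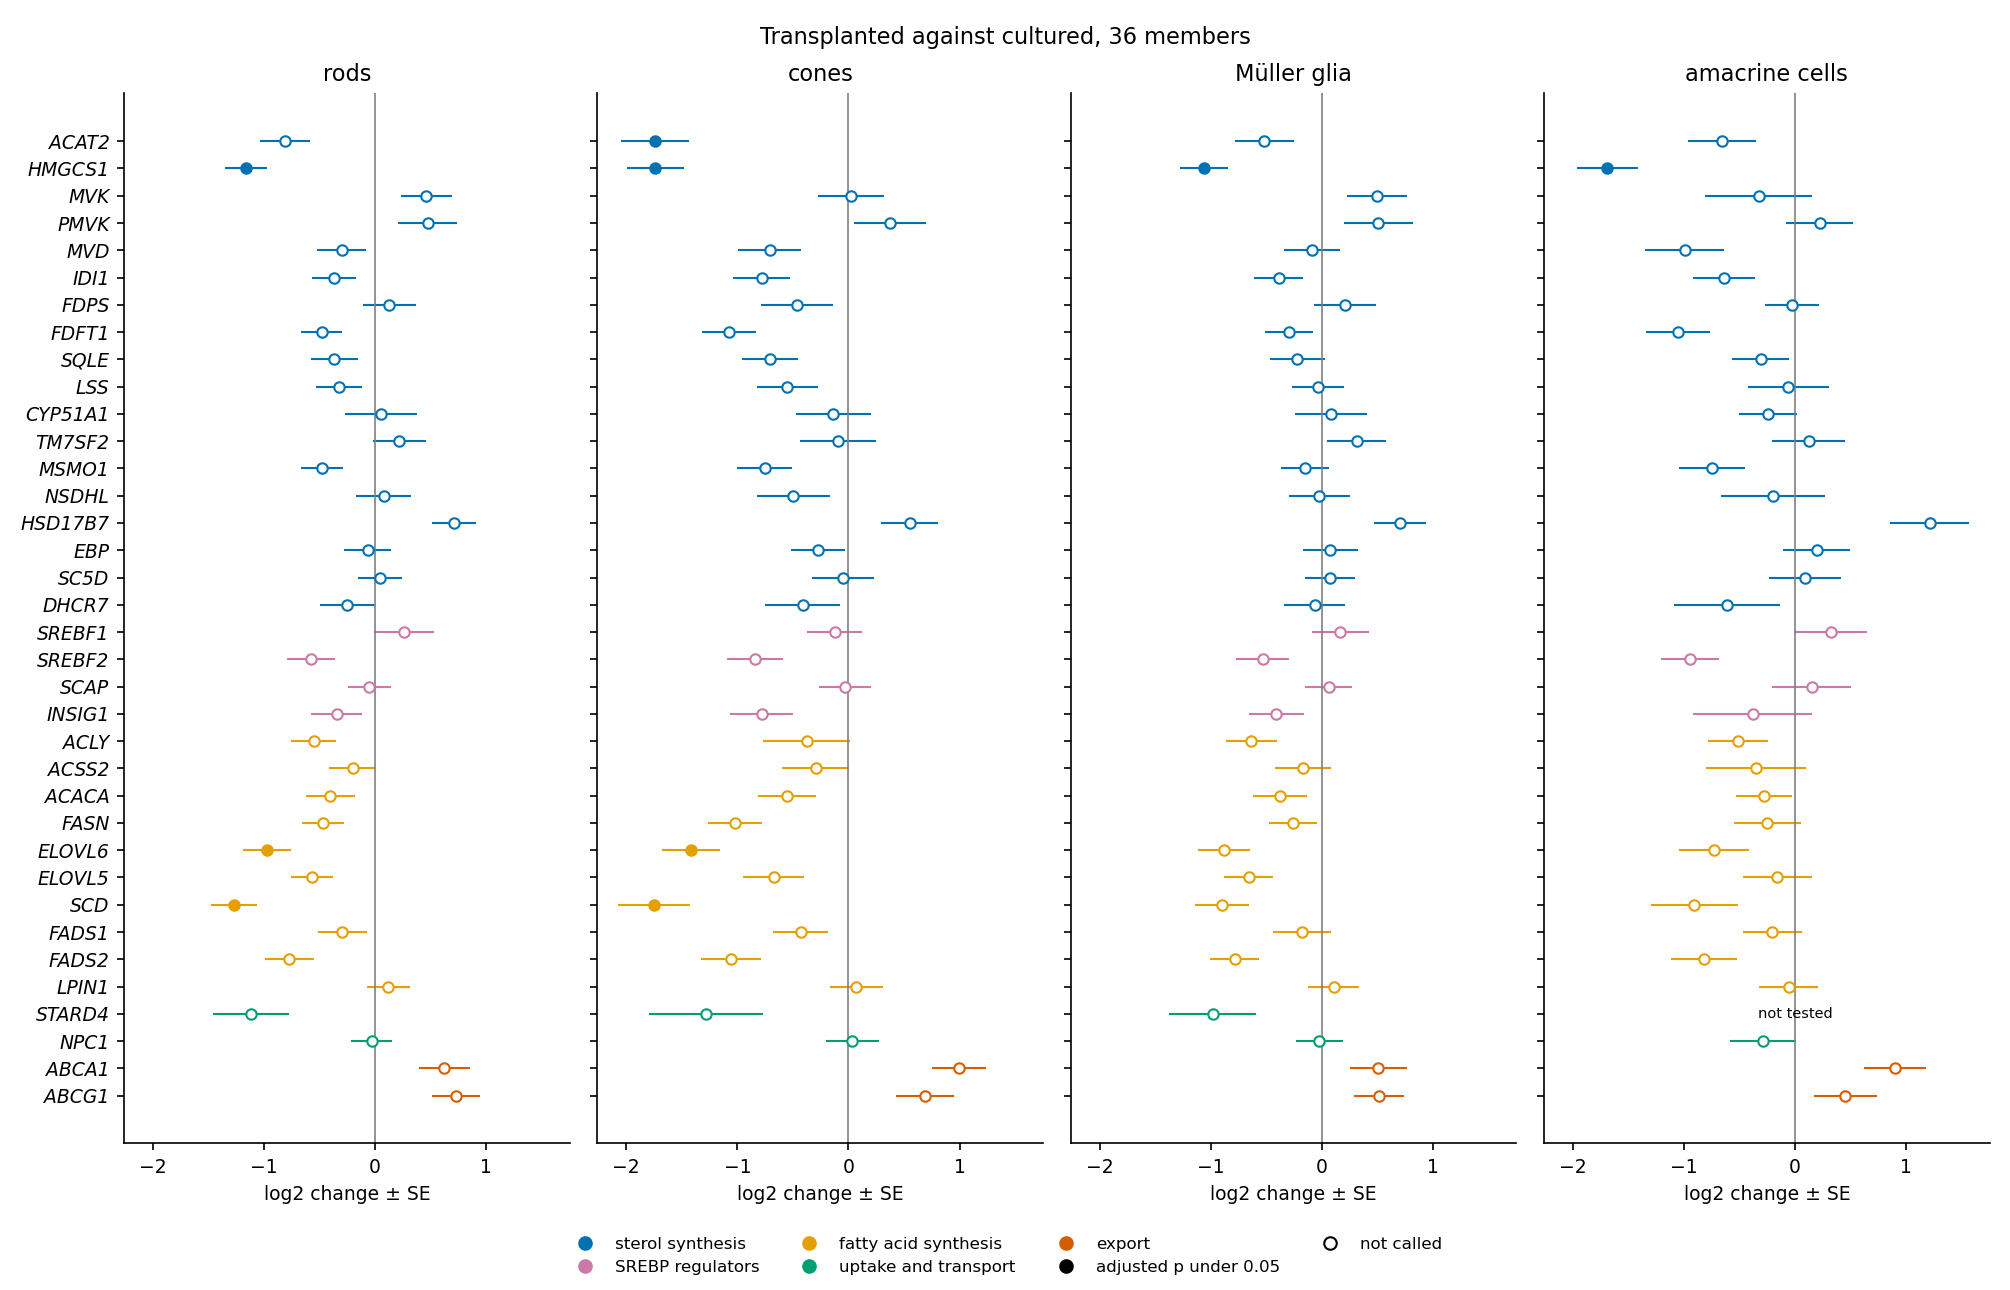
Log2 change (x axis, transplanted against cultured, with its standard error) of the 36 members (y axis, ordered and coloured by role) in the 4 classes, from the fit with the Set as a block over 3 Sets. Filled points have an adjusted p under 0.05: 3 in rods, 4 in cones, 1 in Müller glia and 1 in amacrine cells, all left of zero.

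HMGCS1 (ENSG00000112972, chr5:43289395-43313512, minus strand of GRCh38) joins acetoacetyl-CoA and acetyl-CoA at the entry to the mevalonate pathway. In cones it measured 61.4, 70.4 and 108 CPM in cultured samples 1, 2 and 3 and 16.0, 31.3 and 24.8 CPM in transplanted samples 1, 2 and 3. All 3 transplanted libraries lay below all 3 cultured ones, and the log2 change was -1.74 ± 0.25 (SE; edgeR adjusted p = 0.007659). In amacrine cells its levels were 76.9, 58.4 and 82.3 CPM against 24.7, 17.5 and 20.9 CPM, again without overlap, a log2 change of -1.69 ± 0.27 (adjusted p = 0.005967). In rods HMGCS1 measured 33.4, 50.2 and 78.5 CPM in culture and 16.7, 19.6 and 25.5 CPM after transplantation. The groups did not overlap there either, and the log2 change was -1.16 ± 0.19 (adjusted p = 0.0095). Müller glia held 32.7, 44.6 and 61.2 CPM against 15.8, 16.0 and 24.8 CPM, also without overlap (log2 change -1.06 ± 0.22, adjusted p = 0.01354). Cultured rods alone spanned 33.4 to 78.5 CPM over the 3 Sets, about the size of the change within a Set. The gene also measured 44.5, 63.4 and 82.1 CPM in cultured and 21.0, 26.7 and 44.0 CPM in transplanted cells that met no class rule.

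The HMGCS1 call held in rods when any 1 Set was left out, with adjusted p between 0.01677 and 0.04611. In cones it was lost without Set 2 (log2 change -1.89, adjusted p = 0.05843), in Müller glia without Set 1 or Set 2 (adjusted p = 0.05598 and 0.05589) and in amacrine cells without Set 1 (0.06772). Over cells of 1 class only it was kept in rods and cones and lost in Müller glia (log2 change -0.60, adjusted p = 0.9583) and in amacrine cells (-2.03, 0.9396). A sum needed at least 20 cells. Transplanted sample 2 held 13 such cones and transplanted sample 1 held 18 such amacrine cells. The cone fit therefore lacked the transplanted sample of Set 2, and the amacrine fit that of Set 1. The loss in amacrine cells is thus not shown to come from the choice of cells.

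ACAT2 (ENSG00000120437, chr6:159760328-159779055, plus strand), the cytosolic thiolase that makes acetoacetyl-CoA, stands one step before HMGCS1. In cones it measured 77.4, 70.2 and 49.5 CPM in cultured and 22.2, 9.22 and 19.6 CPM in transplanted samples. The groups did not overlap, and it fell by 1.74 ± 0.31 on the log2 scale (edgeR adjusted p = 0.02602), a call that was lost without Set 2 (-1.46, adjusted p = 0.1415). In rods its 50.2, 53.9 and 34.0 CPM stood clear of 23.7, 22.9 and 22.8 CPM, with a log2 difference of -0.81 ± 0.22 that missed the threshold (adjusted p = 0.07307). In Müller glia and amacrine cells the log2 differences were -0.52 ± 0.26 and -0.66 ± 0.30, with adjusted p of 0.3468 and 0.3268.

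**Figure D2:**
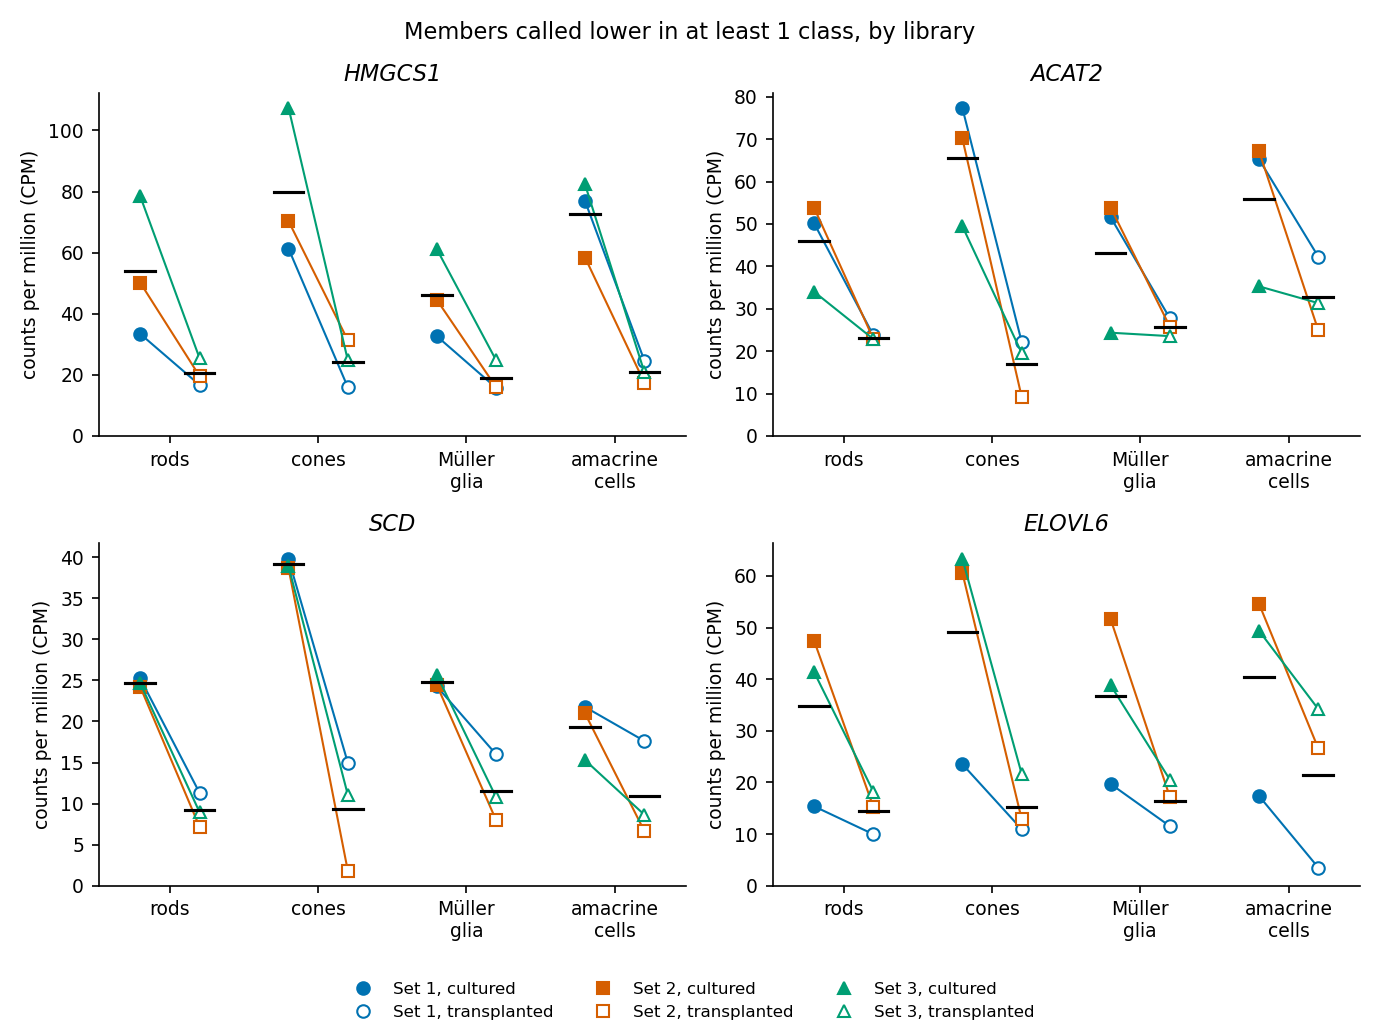
CPM (y axis) of the 4 members that fell in at least 1 class, by class (x axis) and library, with lines joining the samples of a Set and black bars at the mean of 3 libraries. HMGCS1 lies below its cultured partner in 3 of 3 Sets in each of the 4 classes, and SCD of cultured cones sits between 38.7 and 39.8 CPM in the 3 Sets.

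No other sterol synthesis gene passed the test. In cones 15 of the 18 had a negative log2 change, with a median of -0.48 for the arm. The nearest to the threshold was FDFT1, squalene synthase, with 51.8, 49.7 and 51.4 CPM in cultured and 24.1, 20.3 and 23.9 CPM in transplanted cones. Its groups stood far apart compared with their spread, yet the log2 change of -1.07 ± 0.24 had an adjusted p of 0.06844 in edgeR. The other cone values without overlap were those of MVD and IDI1, of the mevalonate route, SQLE, squalene epoxidase, and MSMO1, NSDHL and DHCR7, which trim the sterol ring system or reduce it. Their log2 differences ranged from -0.78 (IDI1) to -0.41 (DHCR7), none with an adjusted p below 0.2289. MVK and PMVK, the kinases between HMGCS1 and MVD, had log2 differences of 0.02 ± 0.30 and 0.37 ± 0.33 in cones.

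In rods 10 of the 18 sterol genes had a negative log2 change and the arm's median was -0.16. In Müller glia 10 were negative with a median of -0.03, and in amacrine cells 13 with a median of -0.28. CYP51A1, the lanosterol demethylase and the member with the highest mean CPM of this arm, measured 198, 190 and 91.6 CPM in cultured and 146, 134 and 142 CPM in transplanted rods. The groups overlapped because cultured sample 3 was low, and the log2 difference was 0.05 ± 0.32 (adjusted p = 0.9591). Its levels in cones were 255, 215 and 102 CPM against 164, 168 and 139 CPM (log2 difference -0.14 ± 0.34). In Müller glia its 126, 132 and 75.7 CPM stood against 85.8, 102 and 116 CPM, and in amacrine cells 162, 126 and 88.2 CPM against 102, 95.6 and 85.0 CPM.

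HSD17B7, a ketoreductase of late sterol synthesis with near-identical pseudogene copies that make its counts uncertain, went the other way. In amacrine cells it measured 11.6, 10.9 and 9.41 CPM in cultured and 24.7, 25.8 and 16.6 CPM in transplanted samples. Those groups did not overlap, but the log2 difference of 1.21 ± 0.36 had an adjusted p of 0.102 in edgeR. In rods, where the groups did not overlap either, it measured 17.0, 14.9 and 20.4 CPM against 26.3, 27.2 and 22.3 CPM (0.71 ± 0.19, adjusted p = 0.07116). In cones and Müller glia the log2 differences were 0.55 ± 0.26 and 0.71 ± 0.23, with adjusted p of 0.4343 and 0.1255.

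In fatty acid synthesis, 9 of its 10 genes had a negative log2 change in rods, cones and Müller glia and 10 in amacrine cells, LPIN1 being the exception in the former 3. The arm's median was -0.51 in rods, -0.61 in cones, -0.50 in Müller glia and -0.31 in amacrine cells. SCD (ENSG00000099194, chr10:100347124-100364834, plus strand), the desaturase that turns saturated into monounsaturated fatty acids, was nearly equal in the 3 cultured cone libraries at 39.8, 38.7 and 38.9 CPM and measured 15.0, 1.84 and 11.1 CPM in the transplanted ones. The value of 1.84 CPM is a single UMI in 34 cells. SCD fell there by 1.75 ± 0.32 on the log2 scale (edgeR adjusted p = 0.03332), or by 1.47 without Set 2, where the call was lost (adjusted p = 0.09211). In rods 25.2, 24.2 and 24.7 CPM stood against 11.3, 7.19 and 8.97 CPM, without overlap (log2 change -1.27 ± 0.21, adjusted p = 0.009936, and 0.05155 without Set 2). In Müller glia SCD measured 24.3, 24.5 and 25.7 CPM against 16.0, 7.99 and 10.8 CPM, likewise apart, and missed the threshold (-0.90 ± 0.24, adjusted p = 0.05334). In amacrine cells the groups overlapped, at 21.8, 21.0 and 15.3 CPM against 17.6, 6.65 and 8.64 CPM (-0.91 ± 0.40, adjusted p = 0.2959).

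ELOVL6 (ENSG00000170522, chr4:110045846-110199199, minus strand), which lengthens palmitate, fell in rods and cones. Cones held 23.5, 60.6 and 63.3 CPM in cultured and 10.9, 12.9 and 21.7 CPM in transplanted samples. The groups did not overlap, though cultured sample 1 was far below the other cultured samples, and the log2 change was -1.42 ± 0.26 (edgeR adjusted p = 0.02602, and 0.1566 without Set 2). In rods its 15.4, 47.5 and 41.4 CPM stood against 9.96, 15.3 and 18.2 CPM. These groups overlapped across Sets but differed within each Set (-0.97 ± 0.21, adjusted p = 0.03161, lost at 0.2062 without Set 2 and at 0.05227 without Set 3). In Müller glia 19.7, 51.6 and 38.8 CPM stood against 11.5, 17.2 and 20.5 CPM, lower in each Set (-0.88 ± 0.23, adjusted p = 0.05276). In amacrine cells ELOVL6 measured 17.4, 54.6 and 49.4 CPM against 3.52 (1 UMI), 26.6 and 34.2 CPM, also lower in each Set (-0.73 ± 0.31, adjusted p = 0.288).

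ACACA, the acetyl-CoA carboxylase that commits carbon to fatty acids, had the highest mean CPM of the arm. Cones held 42.3, 143 and 206 CPM in cultured and 24.1, 127 and 116 CPM in transplanted samples (log2 difference -0.55 ± 0.26, edgeR adjusted p = 0.4431). In rods it measured 26.9, 120 and 145 CPM against 18.5, 73.9 and 105 CPM (-0.40 ± 0.22), and its differences in Müller glia and amacrine cells were -0.37 ± 0.24 and -0.28 ± 0.25. Both groups were low in Set 1 and high in Sets 2 and 3, a gap larger than the difference within a Set. FASN, fatty acid synthase, and FADS2, a desaturase of polyunsaturated fatty acids, came closest to the threshold in cones, with log2 differences of -1.02 ± 0.24 and -1.06 ± 0.27 (adjusted p = 0.0801 and 0.09986). FADS2 also stood at -0.77 ± 0.22 in rods, -0.79 ± 0.22 in Müller glia and -0.82 ± 0.30 in amacrine cells. Of the others, ACLY, ACSS2, ELOVL5 and FADS1 ranged over the classes from -0.67 (ELOVL5 in cones) to -0.16 (ELOVL5 in amacrine cells), and LPIN1, a phosphatidate phosphatase, from -0.06 to 0.12.

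None of the 4 regulators passed the test in any class. SREBF2 was lower in 12 of 12 pairs of libraries of a class and Set. These pairs come from 3 Sets and from classes that share cells, so they are not 12 replicates. The share of all genes with this pattern is not given. Cultured cones held 28.4, 124 and 196 CPM and transplanted cones 21.3, 59.0 and 82.3 CPM (log2 difference -0.84 ± 0.25, edgeR adjusted p = 0.1806). In rods it measured 23.3, 114 and 175 CPM against 19.8, 61.4 and 82.8 CPM (-0.57 ± 0.22, adjusted p = 0.1761). The difference was small in Set 1, where the level was low in both groups, and large in Sets 2 and 3. Müller glia held 18.2, 105 and 132 CPM against 14.2, 53.2 and 71.0 CPM (-0.53 ± 0.24, adjusted p = 0.2801). Amacrine cells held 29, 119 and 187 CPM against 17.6, 64.9 and 69.9 CPM (-0.95 ± 0.26, adjusted p = 0.0879). Set 1 was processed with another version of the counting program than Sets 2 and 3, and the part of this in the levels of SREBF2, ACACA, NPC1 and ABCA1 was not tested.

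SREBF1 showed no common direction. It measured 29.2, 16.0 and 69.2 CPM in cultured and 36.1, 31.4 and 35.5 CPM in transplanted rods, with cultured sample 3 above and cultured sample 2 below every transplanted library (log2 difference 0.26 ± 0.27). In cones it measured 25.0, 14.5 and 46.2 CPM against 26.6, 14.7 and 29.5 CPM, in Müller glia 21.6, 14.1 and 63.2 CPM against 24.8, 23.4 and 30.2 CPM, and in amacrine cells 33.4, 13.3 and 37.6 CPM against 31.7, 25.8 and 28.1 CPM. SCAP, the escort of the SREBPs, differed little in rods, at 17.1, 30.8 and 37.4 CPM against 19.7, 22.4 and 28.1 CPM (-0.05 ± 0.19). In cones SCAP measured 19.5, 30.02 and 39.6 CPM against 20.2, 31.3 and 30.3 CPM (-0.03 ± 0.23), in Müller glia 14.5, 28.8 and 35.5 CPM against 17.1, 24.0 and 26.0 CPM, and in amacrine cells 8.70, 24.6 and 38.8 CPM against 31.7, 24.9 and 24.1 CPM.

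INSIG1, the retention protein and itself an SREBP target, did not overlap between the groups in cones, with 15.0, 16.7 and 24.4 CPM in cultured and 9.52, 12.9 and 9.59 CPM in transplanted samples (-0.78 ± 0.28, edgeR adjusted p = 0.2936). In rods it measured 12.8, 14.7 and 18.4 CPM against 8.89, 14.4 and 9.41 CPM (-0.35 ± 0.23), and in Müller glia 12.8, 14.9 and 25.7 CPM against 9.0, 14.2 and 10.4 CPM (-0.41 ± 0.25). Both were lower in 3 of 3 Sets. In amacrine cells it measured 7.25, 12.2 and 21.2 CPM against 0, 18.3 and 6.48 CPM, where the count of 0 in transplanted sample 1 allows a level of up to 10.6 CPM.

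Of the transport genes, STARD4, which carries cholesterol between membranes, was sparse. It measured 7.01, 4.33 and 9.07 CPM in cultured and 4.59, 2.18 and 1.86 CPM in transplanted rods, lower in each Set (-1.12 ± 0.34, edgeR adjusted p = 0.1007). Cones held 11.6, 5.55 and 10.6 CPM against 4.27, 11.1 and 1.75 CPM, the 11.1 CPM of transplanted sample 2 resting on 6 UMIs (-1.28 ± 0.51, adjusted p = 0.3604). In Müller glia it measured 7.12, 4.35 and 7.90 CPM against 5.52, 1.48 and 1.70 CPM (-0.98 ± 0.39). In amacrine cells its 10.2, 7.42 and 10.6 CPM stood against 0, 1.66 and 3.96 CPM, with no test. NPC1, which releases cholesterol from lysosomes, did not follow. It measured 9.18, 30.8 and 52.4 CPM against 8.38, 27.0 and 43.2 CPM in rods and 7.91, 35.1 and 55.4 CPM against 7.88, 38.7 and 48.0 CPM in cones, log2 differences of -0.03 ± 0.19 and 0.04 ± 0.24. In Müller glia it measured 8.05, 29.8 and 50.0 CPM against 7.48, 24.5 and 40.3 CPM, and in amacrine cells 10.2, 33.0 and 56.5 CPM against 7.05, 20.8 and 47.9 CPM.

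The exporters had positive log2 differences in all 4 classes, as HSD17B7 did, though neither passed the test in any class. ABCA1, which loads cholesterol onto apolipoproteins, measured 18.0, 53.8 and 104 CPM in cultured and 41.3, 127 and 136 CPM in transplanted cones. It was higher in each Set, and the log2 difference was 1.0 ± 0.24 (edgeR adjusted p = 0.08325). In rods it measured 32.8, 103 and 153 CPM against 49.3, 148 and 183 CPM, higher in each Set (0.62 ± 0.23, adjusted p = 0.168). In amacrine cells 16.0, 48.8 and 67.0 CPM stood against 35.2, 108 and 75.3 CPM (0.90 ± 0.28, adjusted p = 0.1276), and in Müller glia 19.9, 80.7 and 155 CPM against 35.9, 89.9 and 143 CPM, higher in 2 of 3 Sets (0.51 ± 0.26, adjusted p = 0.343). Groups overlapped in every class, and the Sets differed more in level than the groups within a Set.

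ABCG1, which passes cholesterol to lipoprotein particles, measured 20.6, 27.0 and 52.7 CPM in cultured and 24.1, 51.2 and 76.9 CPM in transplanted rods, higher in each Set (0.73 ± 0.22, edgeR adjusted p = 0.09097). In cones it measured 25.0, 28.1 and 66.0 CPM against 28.8, 73.7 and 86.8 CPM (0.69 ± 0.26, adjusted p = 0.3112). Müller glia held 17.4, 29 and 71.1 CPM against 20.1, 45.0 and 75.1 CPM (0.52 ± 0.22, adjusted p = 0.2608), higher in each Set, and amacrine cells 11.6, 25.3 and 65.9 CPM against 17.6, 37.4 and 64.5 CPM (0.45 ± 0.28, adjusted p = 0.4958). Over Müller glia of 1 class only, the median log2 difference of the exporters was -0.09. Cells of no class had 24.0, 56.0 and 95.4 CPM of ABCA1 in cultured and 63.0, 171 and 174 CPM in transplanted samples.

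**Figure D3:**
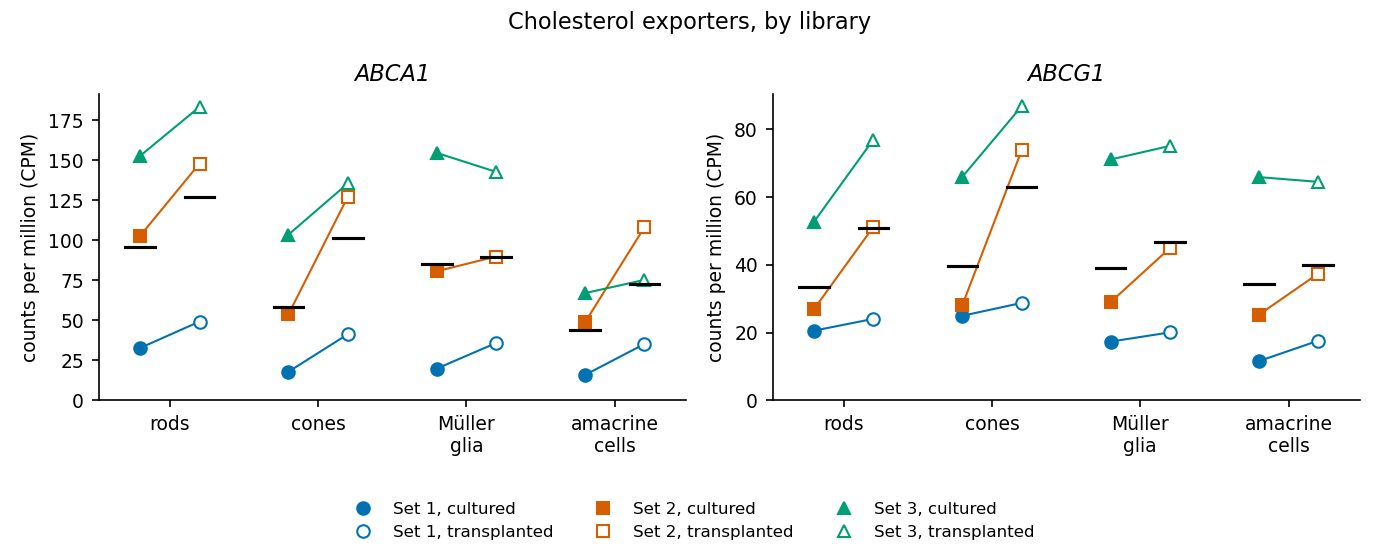
CPM (y axis) of the exporters ABCA1 and ABCG1 by class (x axis) and library, with lines joining the samples of a Set and black bars at the mean of 3 libraries. Lines slope up in 3 of 3 Sets in rods and cones for both genes, and Set 1 lies lowest among the Sets of each group.

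The counts of each arm were summed, scaled by the same TMM factors as the test, and compared within each Set. The fatty acid arm was lower in all 12 pairs of class and Set, with mean log2 ratios of -0.47 ± 0.14 in rods, -0.60 ± 0.21 in cones, -0.45 ± 0.18 in Müller glia and -0.39 ± 0.05 in amacrine cells (SD, n = 3 Sets). The export arm was higher in all 12 pairs, by 0.64 ± 0.18, 0.85 ± 0.30, 0.49 ± 0.12 and 0.76 ± 0.44 in the same order. The 12 pairs come from 3 Sets and from classes that share cells, so they are not 12 replicates. How often sums of other genes show such a pattern is not given. The sterol arm was lower in 3 of 3 Sets in cones (-0.52 ± 0.41) and amacrine cells (-0.35 ± 0.20). The regulators averaged -0.28 in rods, -0.56 in cones, -0.27 in Müller glia and -0.38 in amacrine cells. The transport arm averaged -0.18 in rods, -0.21 in cones, where Set 2 stood at 0.20, -0.15 in Müller glia and -0.81 in amacrine cells. For the sterol arm in rods and Müller glia Set 3 went the other way, and its means were -0.13 ± 0.32 and -0.01 ± 0.41. Scaled by total counts, without TMM factors, the sterol means were -0.29 in rods, -0.57 in cones, -0.22 in Müller glia and -0.45 in amacrine cells, and the ratio of Set 3 turned from 0.24 to -0.14 for the sterol arm in rods and from 0.39 to -0.05 for the export arm in Müller glia. The sign of 5 members in rods, 2 in cones, 6 in Müller glia and 3 in amacrine cells turned as well, none of them called. That scaling moved the median of all genes from -0.02 to -0.18 in rods, from 0.00 to -0.20 in Müller glia and from -0.01 to -0.15 in amacrine cells. In these classes about this much of a difference in plain CPM is common to all genes. The median for cones under that scaling is not given. The cone members that turned in sign moved from 0.02 to -0.04 (MVK) and from 0.04 to -0.04 (NPC1). Total-count scaling turned the split of called genes in rods from 314 higher and 293 lower to 287 and 745. In cones the split went from 42 and 56 to 100 and 163, in Müller glia from 252 and 292 to 165 and 558, and in amacrine cells from 122 and 86 to 103 and 203.

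**Figure D4:**
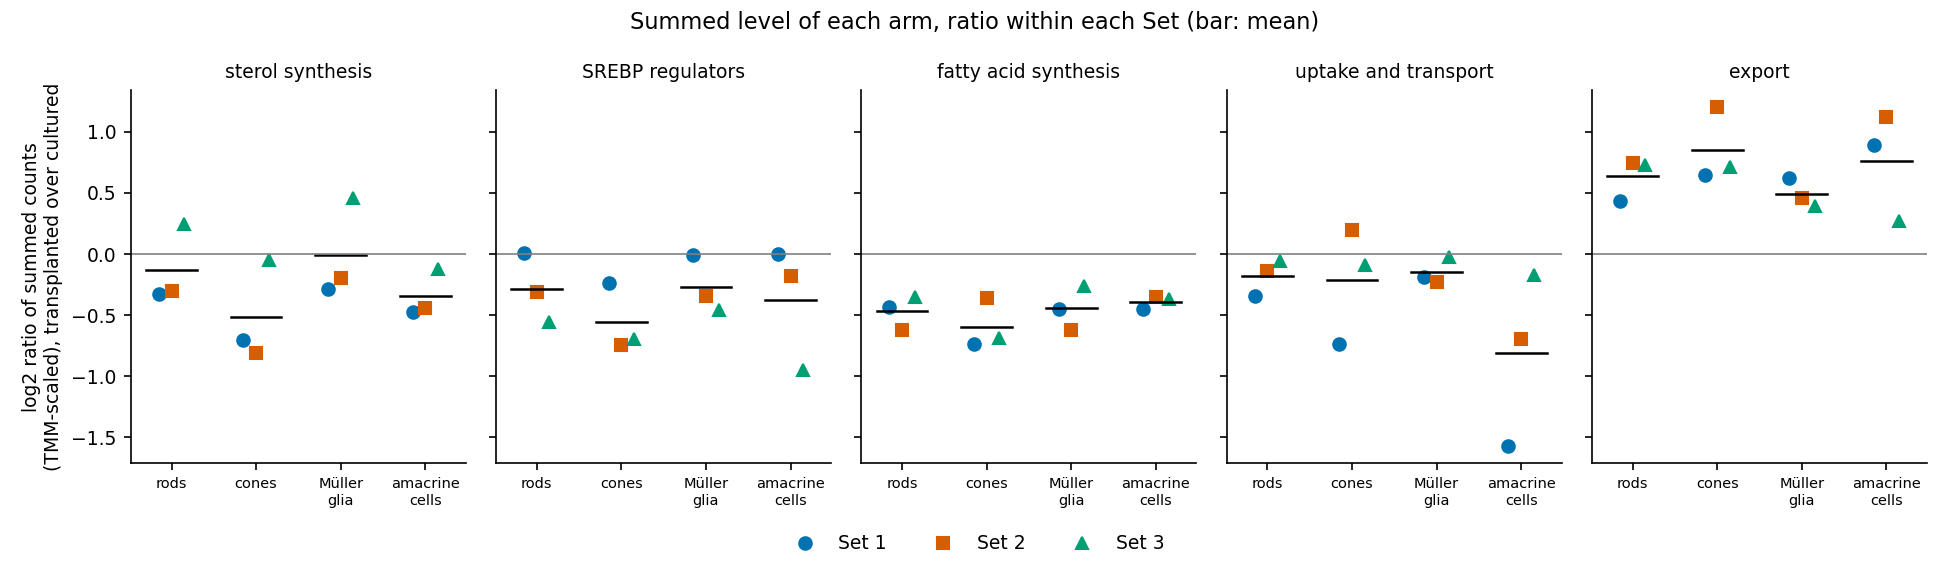
Log2 ratio of the TMM-scaled summed counts of each arm, transplanted over cultured (y axis), for each Set and class (x axis), with black bars at the mean. The fatty acid points all lie below zero and the export points all above it, while sterol points of Set 3 lie above zero in rods and Müller glia.

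Whether cones responded more than the other classes was tested on the difference of responses, over cells of 1 class only. Transplanted sample 2 held 13 such cones, too few for a sum, so these fits rest on Sets 1 and 3. Against rods no member differed (0.338% of 15995 genes were called in either direction), with 9 of 36 members at an unadjusted p under 0.05 in edgeR and 2 of 36 in DESeq2, which also called 0. The difference was -0.73 ± 0.33 for HMGCS1 (adjusted p = 0.651), -0.87 ± 0.34 for ACAT2 (0.4464), -0.83 ± 0.45 for SCD (0.8007) and -0.21 ± 0.42 for ELOVL6 (0.9997), negative where cones fell further. ACAT2 was called when cells of both classes stayed in both over 3 Sets, and ACLY with the host filter. Against Müller glia no gene of 14364 was called (0%), with 8 members at an unadjusted p under 0.05 in edgeR and 2 in DESeq2. The difference was -2.38 ± 0.52 for SCD (adjusted p = 0.2468) and -1.45 ± 0.45 for HMGCS1 (0.5555). Against amacrine cells the test could not be fitted, since transplanted sample 1 held 18 amacrine cells of that class only. These intervals are too wide to show that the classes respond alike.

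The same members were then compared between classes before transplantation, in cells of 1 class only of the 3 cultured samples, which the comparison above shares. In cones 12 members were higher than in rods and 1 was lower, against 3.78% of 17254 genes higher and 2.5% lower. The 12 were ACAT2, HMGCS1, IDI1, FDFT1, SQLE and MSMO1 of sterol synthesis, ACACA, FASN, ELOVL6, SCD and FADS2 of fatty acid synthesis, and STARD4. The STARD4 call (adjusted p = 0.03674) was lost under 7 of 12 alternatives, among them each Set left out. The IDI1 call (adjusted p = 0.01228) was lost under 5 of 13, again among them each Set left out. SCD measured 51.7, 53.8 and 54.9 CPM in cones and 24.1, 18.4 and 21.4 CPM in rods of cultured samples 1, 2 and 3. These values did not overlap, and the log2 difference was 1.43 ± 0.18 (edgeR adjusted p = 2.233e-05). HMGCS1 measured 87.5, 98.3 and 134 CPM in cones and 38.3, 52.7 and 73.1 CPM in rods (1.08 ± 0.17, adjusted p = 0.0003132). ACAT2 measured 102, 91.7 and 61.7 CPM in cones and 45.8, 47.3 and 36.6 CPM in rods (1.08 ± 0.16, adjusted p = 0.0001369). The remaining 9 differences lay between 0.63 (IDI1) and 1.12 (FASN). ABCA1 was the member lower in cones, with 15.5, 47.2 and 65.1 CPM against 47.3, 159 and 166 CPM in rods (-1.49 ± 0.21, adjusted p = 0.0001369).

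In Müller glia 2 members were higher than in rods and 10 lower, against 16.4% of genes higher and 15.2% lower, a share of members near the background in both directions together. ELOVL6 (0.74 ± 0.17) and ELOVL5 (0.87 ± 0.19), elongases of saturated and of polyunsaturated chains, were higher. CYP51A1 was lowest, with 87.9, 87.8 and 43.3 CPM in Müller glia and 251, 288 and 91.7 CPM in rods (-1.46 ± 0.17, edgeR adjusted p = 1.767e-06), and SREBF1, SREBF2 and SCAP were lower too, by log2 differences of -0.87, -0.79 and -0.53. The SCAP call (adjusted p = 0.04725) was lost under 11 of 12 alternatives, among them DESeq2 and each Set left out. The others were IDI1, HSD17B7, ACLY, ACACA, LPIN1 and ABCA1. The IDI1 call (adjusted p = 0.0411) was lost under 8 of 13 alternatives, among them each Set left out. The Müller glia of cultured sample 3 in this comparison were 30 cells. In amacrine cells 4 members were higher (ACAT2, MVD, ELOVL6 and STARD4) and 6 lower (CYP51A1, HSD17B7, SREBF1, ACLY, FADS1 and ABCA1), against 12.9% and 15.4% of genes, again near the background. The FADS1 call (adjusted p = 0.03872) was kept under 2 of 13 alternatives, lost under 10 and turned in sign under 1, that with equal cell numbers. The ACAT2 call (adjusted p = 0.02604) was lost under 7 of 13, among them without Set 1 and without Set 2. ABCA1 stood out at 11.7, 9.42 and 30.2 CPM in amacrine cells against 47.3, 159 and 166 CPM in rods, a log2 difference of -3.47 ± 0.30 (adjusted p = 5.536e-08). Without the sample as a block none of these class differences was called among the members.

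**Figure D5:**
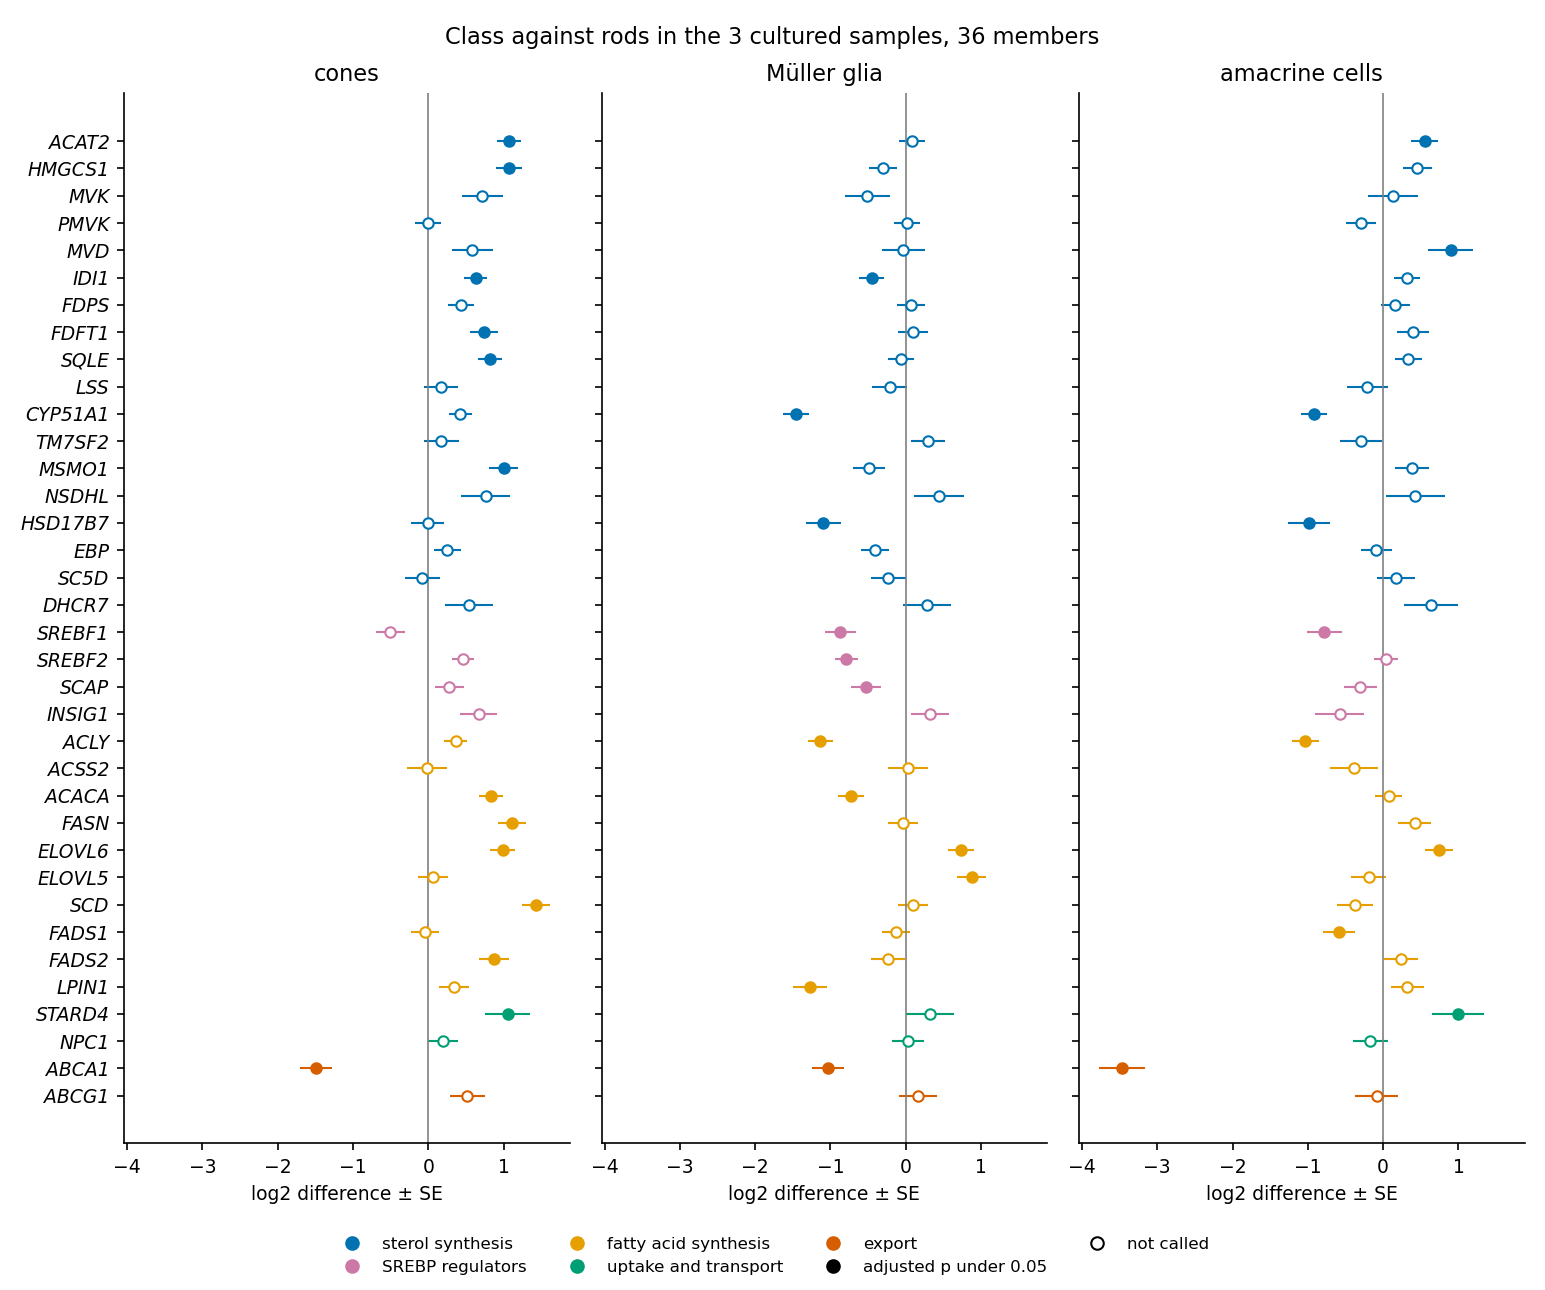
Log2 difference (x axis, with its standard error) of each member (y axis) between a class and rods in the 3 cultured samples, over cells of 1 class only. Filled points have an adjusted p under 0.05: 13 for cones, of which 12 lie right of zero, 12 for Müller glia and 10 for amacrine cells.

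Depth per cell was removed by thinning each cell to 2000 UMIs. Thinned cones held a mean of 2.36, 2.18 and 1.56 UMIs of the 18 sterol genes in cultured and 1.46, 1.23 and 1.28 in transplanted samples, fewer in each Set. Rods held 1.72, 1.73 and 1.18 UMIs against 1.42, 1.29 and 1.15, and amacrine cells 1.75, 1.78 and 1.22 against 1.2, 1.06 and 0.970. Müller glia held 1.48, 1.37 and 0.934 against 1.18, 1.06 and 1.01, the last Set reversed. Of thinned cones with at least 2000 UMIs, the share holding any such UMI was 84.3%, 84.4% and 71.5% in culture against 78.4%, 83.3% and 70.1% after transplantation, differences of -5.86, -1.09 and -1.49 percentage points. Without thinning these shares were 93.9%, 99.3% and 95.2% against 93.3%, 85.3% and 97.0%. In transplanted sample 2 the thinned share comes from 25 of 30 cones, with an exact 95% binomial interval of 65.3% to 94.4% that covers counting error only.

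Among 39 other genes of the same routes that are not members, 1 was called between transplanted and cultured cells. ME1, the malic enzyme that supplies NADPH for lipid synthesis, fell in rods from 9.86, 26.2 and 29.2 CPM to 5.21, 8.50 and 10.5 CPM (-1.17 ± 0.22, edgeR adjusted p = 0.01582). It also fell in Müller glia (-0.88 ± 0.23, adjusted p = 0.04899), and its log2 differences in cones and amacrine cells were -0.86 ± 0.28 and -0.80 ± 0.41. The median log2 change of the 39 genes was 0.09 in rods, 0.02 in cones, 0.04 in Müller glia and 0.17 in amacrine cells. In the cultured samples ELOVL4, an elongase of very long chains known from photoreceptors, was the only one of 38 tested that was higher in cones than in rods (0.59 ± 0.18, adjusted p = 0.04558), and none was lower. Between Müller glia and rods 4 of 38 were higher and 7 lower, and between amacrine cells and rods 3 were higher and 8 lower.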

How the data were processed

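Libraries of the 10x Genomics Single Cell 3' v3.1 kind were made from dissociated fragments, per the labels' protocols. The authors deposited raw UMI counts per gene and cell, without normalization. Per the file headers they came from Cell Ranger 6.0.2 in Set 1 and 7.1.0 in Sets 2 and 3, and per the submitters' processing notes the genome was GRCh38. The setting for intronic reads is not given in the sources used here. Gene positions came from GENCODE v29 and promoters from RefSeq (GRCh38.p14).

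Cells with at least 1000 UMIs, 500 genes and at most 20% mitochondrial UMIs were kept, and the highest Scrublet scores (Scanpy 1.11.5) were removed at 0.8% per 1000 cells, since the automatic threshold marked at most 2 cells per library. Classes needed 3 UMIs of NRL (rods), 3 of PDE6H and more than of NRL (cones), 3 of HES5, WIF1 and TTYH1 together (Müller glia) or 2 of TFAP2A and TFAP2B together (amacrine cells). A cell could belong to several. Counts were summed per library and class (at least 20 cells) and tested over all genes with edgeR 4.0.16 in R 4.3.3 (filterByExpr, TMM, robust quasi-likelihood fit, Benjamini-Hochberg threshold 0.05), with the Set as a block. Differences between classes used cells of 1 class only, with the sample as a block. The fit of transplanted against cultured samples was also run on simulated counts of rods and cones with known changes and the same spread setting for every gene. The fits of differences between classes were not simulated.

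Both samples of a Set come from the same organoid batch, per the series text, so the Set number was taken to pair them. Their deviations from the group means correlated at 0.29 to 0.92 in every class and Set. In Set 2, however, a sample of another Set correlated more closely than the partner did in all 4 classes (0.289 with the partner against 0.404 in cones). Deviations of 3 samples from their mean cancel out, and Set 1 alone had another version of the counting program. A positive correlation in Sets 2 and 3 therefore does not by itself show pairing. The p-values measure the spread over 3 Sets of 1 line, or over Sets 1 and 3 in the differences of responses. In these fits the spread of a gene is estimated partly or fully from all genes tested. Values per sample are given for members called in at least 1 class, for regulators, transport and export genes and for the member with the highest mean CPM of each arm. Of non-members only called genes are named. SE is the log2 change divided by the square root of F. Members, lists and the choice of the block were made with earlier results of these data known. Alternatives were no block, DESeq2 1.42.0, total-count scaling, no low-count filter, each Set left out, other cell rules, equal cell numbers and a filter for host cells, and, chosen after seeing the data, leaving out cells over 20000 UMIs or cells of both classes compared.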

Additional observations from a re-analysis of the deposited data

How the results depend on the processing

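The 4 counts of members that differ between transplanted and cultured cells all depend on the paired design. Without the replicate block 0 members were called in rods (3 with it), cones (4), Müller glia (1) and amacrine cells (1), and 0 in each comparison of cultured classes (13, 12 and 10 with it). Leaving out a Set gave 1 to 3 members in rods, 0 to 9 in cones, 0 to 4 in Müller glia and 0 to 5 in amacrine cells, the lowest count coming without Set 2 in rods and cones, without Set 1 or Set 2 in Müller glia and without Set 1 in amacrine cells, and the highest in cones, Müller glia and amacrine cells without Set 3. For the cultured classes it gave 9 to 10 members for cones against rods, 6 to 10 for Müller glia and 3 to 8 for amacrine cells. In the order rods, cones, Müller glia and amacrine cells, total-count scaling gave 8, 7, 6 and 3 members, equal cell numbers 1, 0, 0 and 0, the host filter 7, 7, 4 and 1, and cells of 1 class only 4, 8, 0 and 0. With cells of 1 class only, cones of transplanted sample 2 and amacrine cells of transplanted sample 1 were too few for a sum. No low-count filter gave 5 in rods and 3 in Müller glia, no doublet removal 3 in Müller glia and 2 in amacrine cells, the stricter cell filter 2 in Müller glia, stricter markers 0 in amacrine cells, and leaving out cells over 20000 UMIs 9 in cones and 0 in Müller glia. Among these alternatives, the number of all genes called is given only for total-count scaling and, between transplanted and cultured cells, without the block. A rise or fall in the member counts is therefore not shown to be particular to the members. The members called higher in these fits were ABCA1 in cones without Set 3, with the host filter and without deep cells, HSD17B7 and ABCG1 in rods with the host filter, and HSD17B7 and ABCA1 in amacrine cells without Set 3. The difference of responses between cones and rods called 1 member with cells of both classes in both and 1 with the host filter, and that between cones and Müller glia 1 without the low-count filter. Among cultured classes equal cell numbers gave 6 members for cones, 3 for Müller glia and 3 for amacrine cells against rods, keeping cells of 2 classes in both gave 4 for Müller glia, and DESeq2 gave 11 for amacrine cells, 6 higher and 5 lower in place of 4 and 6. With equal cell numbers FADS1 turned to 0.39 between amacrine cells and rods. Without thinning, the mean difference in the share of cells with a sterol UMI turned from -4.55 to 3.75 percentage points in rods, from -1.52 to 0.811 in Müller glia and from -4.52 to 6.46 in amacrine cells. The cause was not tested. Each of the 9 called pairs of member and class kept its sign under every alternative that gave it a value. Leave-one-out fits of the differences of responses were possible only without Set 2, which those fits lack already, stricter markers left no fit for cones against Müller glia, and cones against amacrine cells could be fitted only with cells of 2 classes in both and without cells of both, with 0 members each. Depth limits the amacrine cells of transplanted sample 1 most, where 3 UMIs equal 10.6 CPM, then the cones of transplanted sample 2 (5.53 CPM) and the amacrine cells of cultured samples 1 and 3 (4.35 and 3.53 CPM).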
